A study of Homo sapiens with 2 samples.

Results

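The miRNAs described here are both arms of 5 human hairpins, miR-149, miR-296, miR-197, miR-328 and miR-652. They were chosen by name, as conserved hairpins of which 1 arm read more than 100 scanner units over the mean of the blank spots on both arrays, and they make up 10 of 2632 miRNA probes. The brightness of the arm that passed that threshold therefore chose the hairpins and is given as a description. Conservation was taken as given. The RNA came from exosomes, small membrane vesicles shed into the culture medium, of U87MG delta EGFR cells, an established glioblastoma line with a truncated epidermal growth factor receptor. One array (Toray 3D-Gene, 1 colour, Cy5) held RNA of non-treated control cells. The other held RNA of cells given boron neutron capture therapy (BNCT), in which boron, carried into cells by a compound, is split by thermal neutrons. For BNCT the labels give 25 ppm of a p-boronophenylalanine-fructose complex for 2 hours, irradiation, and collection of the medium on day 3, with both groups grown in exosome-depleted serum. The labels do not say how the control was handled beyond being non-treated, so compound, neutrons, handling, day of collection and slide cannot be told apart. The extraction protocol speaks of RNA from cells, whereas the titles name exosomes. With 1 array per group nothing was replicated, no test was run, and the number of arrays limits the precision.

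A miRNA hairpin is cut into a duplex of 2 arms, named 5p and 3p by their place in the hairpin, and usually 1 of them, the guide, is kept by an Argonaute protein while its partner is degraded. The guide pairs with messenger RNAs chiefly through its seed, bases 2 to 8. In the older miRBase names miR-149-5p, miR-296-5p, miR-197-3p, miR-328-3p and miR-652-3p carried the plain name of their hairpin, which was given to the arm taken as predominant, and most published targets belong to these arms.

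The 10 mature sequences are printed because the arms of a hairpin differed in base composition as well as in brightness. Sequences and positions are those of RefSeq (GRCh38.p14), which held all 10, and are written 5′ to 3′ with the seed in capitals. The prefix hsa, for Homo sapiens, is left out in the rest of the text.
hsa-miR-149-5p: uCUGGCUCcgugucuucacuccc
hsa-miR-149-3p: aGGGAGGGacgggggcugugc
hsa-miR-296-5p: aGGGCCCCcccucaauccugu
hsa-miR-296-3p: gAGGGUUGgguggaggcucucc
hsa-miR-197-5p: cGGGUAGAgagggcagugggagg
hsa-miR-197-3p: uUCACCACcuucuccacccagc
hsa-miR-328-5p: gGGGGGGCaggaggggcucaggg
hsa-miR-328-3p: cUGGCCCUcucugcccuuccgu
hsa-miR-652-5p: cAACCCUAggagagggugccauuca
hsa-miR-652-3p: aAUGGCGCcacuaggguugug

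No 2 of the 10 arms share a seed. The hairpins lie on 5 chromosomes. miR-149 is at chr2:240456001-240456089 on the plus strand, within the span of GPC1, which encodes the cell surface proteoglycan glypican-1, and of its antisense transcript GPC1-AS1. miR-197 is at chr1:109598893-109598967 on the plus strand, within the span of GNAI3, a G protein subunit. miR-328 is at chr16:67202321-67202395 on the minus strand, inside ELMO3, which runs on the plus strand. miR-652 is at chrX:110055329-110055426 on the plus strand, within TMEM164. miR-296 is at chr20:58817615-58817694 on the minus strand, in no other annotated gene, 532 bases from the miR-298 gene and 22054 bases from the imprinted GNAS gene. The annotation used gives gene spans only, so exon and intron were not told apart. The hairpins of miR-149 and miR-296 are shown with both arms in capitals. miR-149 is an example of those with a dim partner arm, and miR-296 is the one whose arms were both detected on both arrays.
miR-149 hairpin: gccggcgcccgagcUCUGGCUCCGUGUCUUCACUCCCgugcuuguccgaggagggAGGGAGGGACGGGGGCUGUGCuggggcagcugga
miR-296 hairpin: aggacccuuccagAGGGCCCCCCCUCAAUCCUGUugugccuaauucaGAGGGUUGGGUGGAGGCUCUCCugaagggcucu

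Brightness is the median of 1 spot per probe in scanner units. The blank spots had means of 258.1 units in control and 254.9 in BNCT, and a miRNA was called detected above their mean + 2 SD, which was 272.0 and 267.5 units. By that limit 28.6% of all miRNA probes passed in control and 36.2% in BNCT. Of the 10 arms 7 passed in control, 9 in BNCT and 6 in both, and 5 of each count were fixed by the choice of hairpins. Spots that carry no probe averaged 301.3 and 289.0 units, and 112 and 110 of these 112 spots passed the detection limit themselves. An arm just over the limit was thus dimmer than most spots with no probe, and 6 of the 10 arms read above that average on each array. The most studied glial and glioma miRNAs were mostly at the blank level. Of 10 such miRNAs 2 were detected on each array. miR-21-5p was under the limit on both, and miR-24-3p was bright, at 620.0 units in control and 915.6 in BNCT.

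In each hairpin 1 arm was bright on both arrays and its partner lay near the limit, with miR-296 as the exception. The bright arm was the 3p arm of miR-149 and miR-296 and the 5p arm of miR-197, miR-328 and miR-652. In all 5 hairpins this is the arm that did not carry the plain name. How often that holds among other hairpins with a bright arm was not counted, so it is not shown to be particular to these 5. Brightness also depends on how well a probe binds, so arms are set side by side here as readings and not as amounts of RNA.

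miR-149-3p read 459.3 units in control and 673.2 in BNCT. This arm is known to repress AKT1 and E2F1 and was described as p53-responsive in melanoma cells. Its partner miR-149-5p, described as silenced by methylation in several tumours, read 263.1 units in control and 271.4 in BNCT. The partner passed the limit on the BNCT array only, by less than the SD of the blank spots there (6.27 units).

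miR-296-3p was the brightest of the 10 arms as read, at 545.5 units in control and 781.6 in BNCT. miR-296-5p, which is raised in tumour endothelium and represses HGS, a protein that sends growth factor receptors to degradation, read 303.1 units in control and 329.9 in BNCT. It was the one partner arm detected on both arrays. It was also the one partner arm above the average of the spots without a probe. On the control array it passed that average by less than their SD (10.4 units).

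miR-197-5p read 424.6 units in control and 548.2 in BNCT. miR-197-3p, known for repressing the tumour suppressor TUSC2, read 266.2 units in control and 277.5 in BNCT. miR-328-5p read 478.4 units in control and 584.7 in BNCT. miR-328-3p, which represses the drug efflux pump ABCG2 and in leukaemia cells also binds hnRNP E2 as a decoy, read 251.7 units in control, under the blank mean, and 273.3 in BNCT. Both 3p arms were over the limit on the BNCT array only.

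miR-652-5p read 376.4 units in control and 442.8 in BNCT, the dimmest of the bright arms. miR-652-3p read 273.2 units in control and 264.9 in BNCT. It was thus over the limit on the control array only, and it was the one arm of the 10 with a lower reading on the BNCT array. Among hairpins with numbers under 1000 whose arms share a name, miR-652 lay close to the threshold that chose the hairpins. It read 118.3 units over the blanks on its dimmer array. Inside the threshold miR-371a-5p at 102.0 and miR-204-3p at 114.2 units lay nearer to it. Just outside it were miR-939-5p at 96.8, miR-92b-5p at 85.3 and miR-671-5p at 82.7 units. The hairpins miR-371a, miR-204, miR-211, miR-642a and miR-937 also lay over the threshold and are not among the 5.

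**Figure D1:**
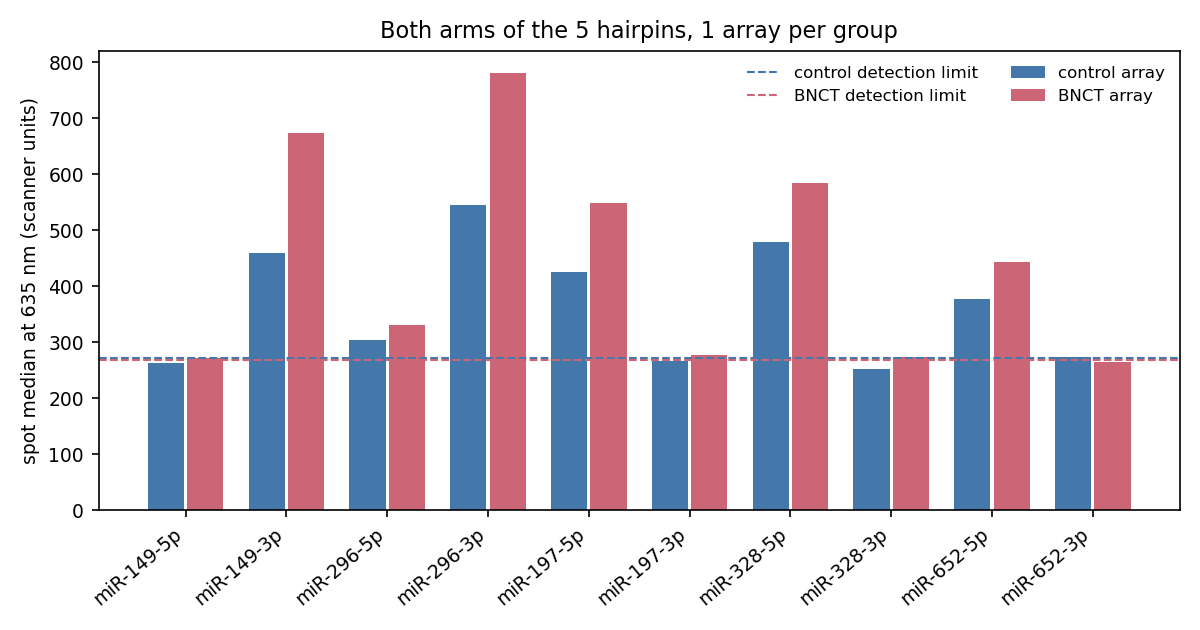
Spot median in scanner units (vertical axis, from 0) of both arms of the 5 hairpins on the control and the BNCT array, 1 spot per bar, with the detection limits (272.0 and 267.5 units) as dashed lines. The 5 bright arms read 376.4 units or more on both arrays, miR-296-5p lies at 303.1 and 329.9, and the other 4 partner arms lie close to the limits.

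Of the 5 hairpins 0 had 1 arm detected on both arrays and the other on neither, because every partner arm passed the limit on at least 1 array. Among the other 828 hairpins with both arms on the array 177 (21.4%) had that pattern. The count rested on readings at the limit. With the limit at 5 SD, 292.8 and 286.3 units, it was 4 of the 5, since only the miR-296 partner stayed above, and with a limit from spots without a probe it was also 4. The other hairpins had the pattern in 22.5% and 15.5% at these limits. With 1 common limit it was 1 of the 5, against 23.6% of the other hairpins. The choice of hairpins fixed the bright arm in each of these counts, but not in those of the other hairpins, so the shares are not like for like. The share of the other hairpins with an arm over the 100 unit threshold was 10%. Of those 83 hairpins 35 had a partner arm under the limit on both arrays and 24 had both arms detected on both.

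After background correction and quantile normalization no arm differed 2-fold between BNCT and control, as was so for 0% of all 630 probes detected on both arrays in either direction. Each difference subtracts the control level from the BNCT level, in log2 of the corrected intensity, which an offset of 50 units pulls towards 0. The spot error joins the SD of the blanks and the spread of the spike control spots, and covers noise within an array only. The median over the 630 probes was -0.01, with an SD of 0.22. Of the 6 arms detected on both arrays 3 lay above 0 and 3 below, where 47% and 52.4% of the 630 probes did.

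The largest difference among the 6 arms detected on both arrays was that of miR-149-3p, at 0.31 (spot error 0.13). Before normalization its reading over the blanks went from 201.1 to 418.3 units, a ratio of 2.08, where the median ratio of the 630 probes was 1.64. The difference was 2.45 spot errors, and 7.94% of the 630 probes lay 2 or more spot errors higher in BNCT and 6.03% that far lower. Against the median of all probes miR-149-3p lay 0.20 higher without background correction and 0.45 higher where no or only constant scaling was applied, and in between in the other settings. Its background column, 535.3 and 682.3 units, exceeded the spot itself on both arrays, so the setting with that column says little about it.

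miR-296-3p had a difference of 0.14 (spot error 0.13) and miR-197-5p one of 0.07 (spot error 0.12). Both turned negative, to -0.13 and -0.17, when the scanner's own background column replaced the blank spots. miR-296-3p went from 287.4 to 526.7 units over the blanks, a ratio of 1.83, and miR-197-5p from 166.4 to 293.3, a ratio of 1.76. Neither differed by more than 2 spot errors.

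miR-328-5p had a difference of -0.10 (spot error 0.12) and miR-652-5p one of -0.09 (spot error 0.13), both within 1 spot error of 0. Their readings over the blanks went up, from 220.2 to 329.8 units for miR-328-5p (a ratio of 1.5) and from 118.3 to 187.9 for miR-652-5p (a ratio of 1.59), but by less than the median ratio of 1.64. The sign of both therefore followed the scaling, and was positive without normalization, with spike scaling and in the authors' processed values. With the scanner's background column they were -0.54 and -0.51. That column itself rose from control to BNCT, from 335.4 to 535.2 units for miR-328-5p and from 318.3 to 478.6 for miR-652-5p. For miR-652-5p it exceeded the BNCT spot of 442.8 units, so this setting says little about that arm.

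From the highest of the 5 bright arms, miR-149-3p, to the lowest, miR-328-5p, the differences spanned 0.41, where the SD over the 630 probes was 0.22. These 2 arms were picked as the extremes, so the span is a description. The median difference of the 5 bright arms was 0.07.

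Within miR-296, the one hairpin where both arms could be compared between arrays, the 3p arm lay 0.14 higher and the 5p arm 0.10 lower in BNCT (5p difference -0.10, spot error 0.15). The arms were 0.23 apart, with a spot error of 0.20, and across settings this gap ran between -0.12 (the scanner's background column) and 0.37. A different response of the arms is therefore not shown beyond the noise of a spot.

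**Figure D2:**
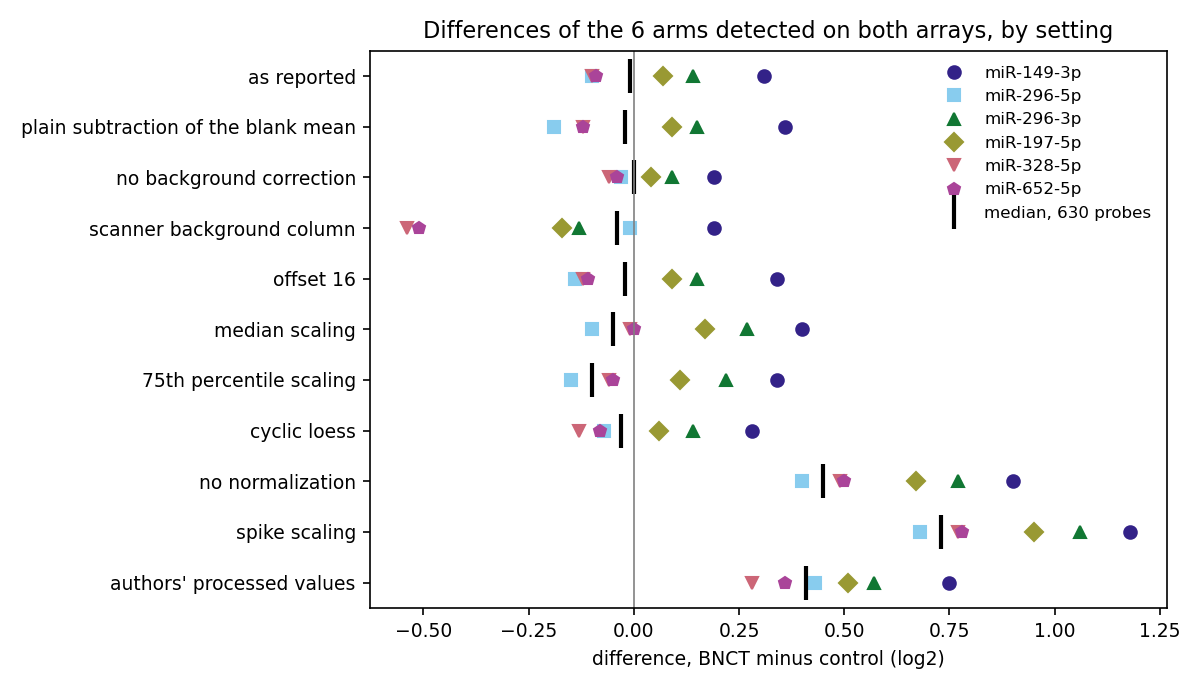
Difference between BNCT and control (log2, horizontal axis) of the 6 arms detected on both arrays under each of 11 settings (rows), with the median of the 630 probes detected on both arrays as a black tick. miR-149-3p is the rightmost arm in each row, but 4 rows (median, 75th percentile, no and spike scaling) differ only by a constant and have the same order by construction. The place of all arms against 0 follows the scaling, whose median runs from -0.10 to 0.73.

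In the authors' deposited table, which lists a miRNA only above a limit, miR-149-3p stood at 161.4 in control and 271.2 in BNCT and miR-296-3p at 230.6 and 341.5. miR-328-5p stood at 176.7 and 213.8, miR-197-5p at 133.5 and 190.2, and miR-652-5p at 94.9 and 121.8. These are linear intensities, each array scaled by the authors to its own median of listed values. All 5 bright arms were higher in BNCT there, as was the median of the 630 probes, by 0.41 on the log2 scale. Against that median miR-149-3p lay 0.34 higher and miR-328-5p lay at -0.13.

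The 4 arms detected on 1 array gave little room for a difference. miR-149-5p, miR-197-3p and miR-328-3p were over the limit on the BNCT array alone, as were 12.3% of all probes, and miR-652-3p on the control array alone, as were 4.64%. A lower bound of the fold compares the normalized level on the brighter array with the dim probe's level on the other array, or with the lowest level detected there if that is higher. It was 1.05-fold for miR-197-3p, higher in BNCT, and 1.08-fold for miR-652-3p, higher in control. For miR-149-5p and miR-328-3p it was not above 1 as printed, and no fold is given. The bounds followed the setting. Over all settings the highest were 1.25-fold for miR-149-5p, 1.36-fold for miR-197-3p and 1.29-fold for miR-328-3p, each with spike scaling, and 1.53-fold for miR-652-3p with plain subtraction. As printed, miR-149-5p had a bound above 1 only with the scanner's background column (1.05-fold), without normalization (1.03-fold) and with spike scaling. miR-197-3p and miR-328-3p had none above 1 with median or 75th percentile scaling, and miR-328-3p had none without background correction. miR-197-3p and miR-652-3p had none with the scanner's background column, and miR-652-3p had none with spike scaling.

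Base composition differed between the arms. The share of G was 61.9% in miR-149-3p, 50% in miR-296-3p, 60.9% in miR-197-5p, 69.6% in miR-328-5p and 28.0% in miR-652-5p. In the partner arms it was 17.4% in miR-149-5p, 19.0% in miR-296-5p, 4.55% in miR-197-3p, 18.2% in miR-328-3p and 38.1% in miR-652-3p. In 4 of the 5 hairpins the bright arm was thus the G-rich strand, facing a partner of 43.5% to 54.5% C. miR-652 went the other way, with the brighter arm poorer in G.

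Over the whole array detection also rose with the share of G, but only above 30% G. Of 2632 probes 2337 (88.8%) had a RefSeq sequence. Among the 240 of them with 50% G or more, 90.4% passed the limit in control and 98.3% in BNCT, and among the 687 with under 20% G, 15.9% and 19.2%. Across the 2337 probes the share of G correlated with log2 brightness at Pearson r = 0.53 in control and 0.60 in BNCT (Spearman rho = 0.38 and 0.49). The share of U ran the opposite way, at Pearson r = -0.41 in control and -0.45 in BNCT (Spearman rho = -0.43 and -0.51). By rank U was thus tied to brightness somewhat more closely than G. The shares of A (r = -0.19 and -0.18) and C (r = -0.07 and -0.12) were less related to it. These are descriptions across probes that share 2 arrays and are no replicates. The part of probe binding in them was not tested. The share of G was only weakly related to the difference between BNCT and control over the 568 such probes detected on both arrays (Spearman rho = 0.13).

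**Figure D3:**
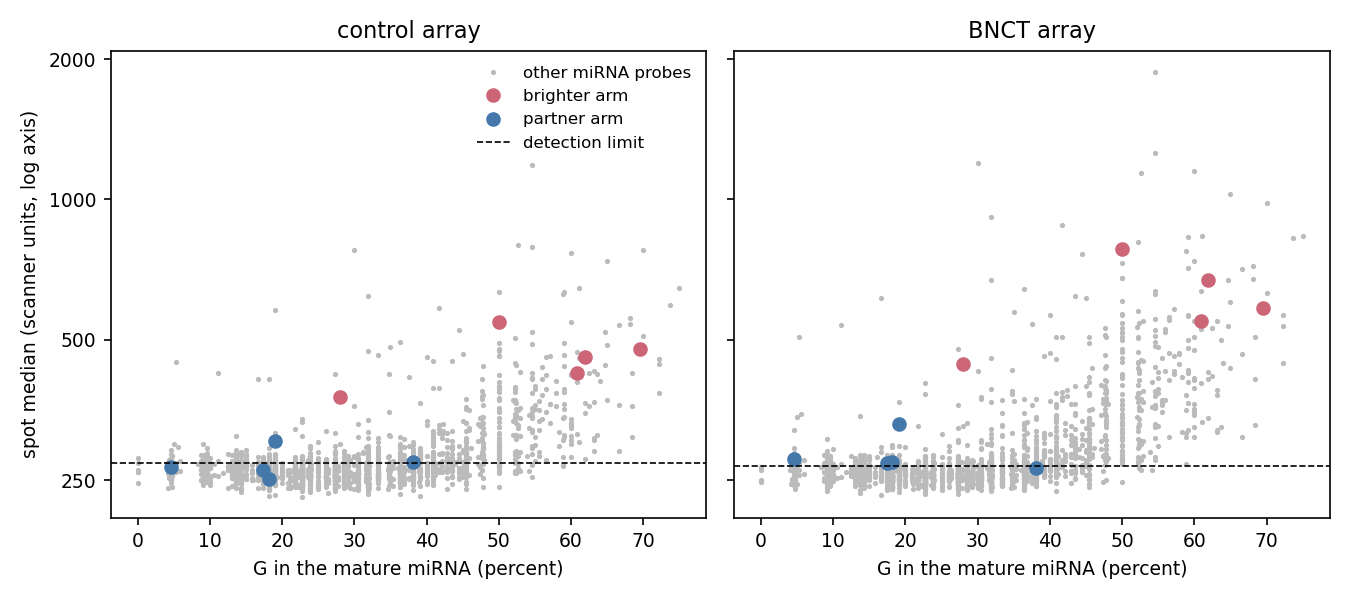
Spot median (scanner units, log axis) against the share of G in the mature miRNA (percent) for the 2337 probes with a RefSeq sequence, on the control array (left) and the BNCT array (right), with the brighter arms in red, their partners in blue and the detection limit dashed. Of the bright arms 4 lie at 50% G or more, among probes that are nearly all above the limit, and miR-652-5p lies at 28.0%.

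Arm against arm, the G-rich strand was also the brighter one in most other hairpins. Among 274 other hairpins with an arm detected on both arrays and unequal G shares, the brighter arm was the G-richer in 239 (87.2%). Among the 68 of them over the 100 unit threshold it was so in 67. In the older hairpins, with numbers under 1000, the share was 66.7% of 54. miR-652 is thus one of the hairpins that went against the common direction, while the other 4 followed it.

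**Figure D4:**
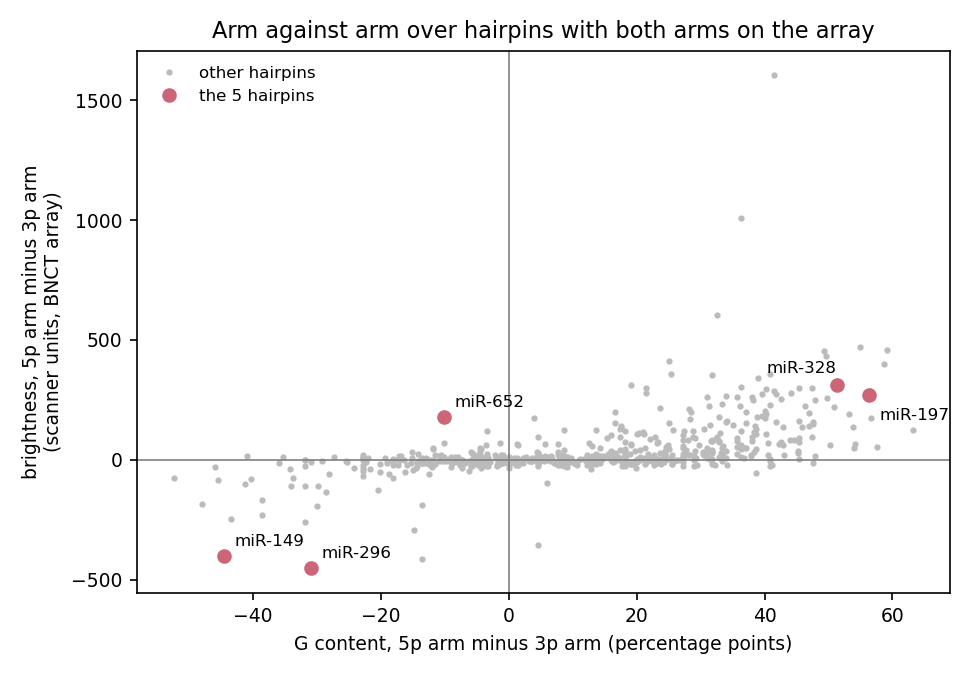
Brightness of the 5p arm minus the 3p arm on the BNCT array (scanner units) against the difference in their G content (percentage points) for 700 hairpins with both sequences, the 5 hairpins in red. miR-197 and miR-328 lie at the upper right, miR-149 and miR-296 at the lower left, and miR-652 lies at the upper left, with a brighter 5p arm that is the poorer in G.

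Short motifs also differed between the arms, though of those searched only GGAG divided them fully. The 4 letters GGAG were searched in the mature sequences, 5′ to 3′ on the RNA strand, since they were described as a motif of miRNAs sorted into vesicles of human T cells through the RNA-binding protein hnRNPA2B1. GGAG occurred in all 5 bright arms and in 0 of the 5 partner arms, in 15.8% of the 2337 probes with a sequence and in 38.0% of the 568 of them detected on both arrays, as the bright arms were by choice. Of probes that hold it 60.3% passed the limit in control and 73.0% in BNCT, against 23.0% and 29.4% of those that do not. GGG, which can overlap GGAG by its Gs, occurred in the 5 bright arms, in 2 of the partner arms (miR-296-5p and miR-652-3p), in 32.8% of the 2337 and in 71.8% of the 568. CCC occurred in 1 bright arm, miR-652-5p, in 4 of the 5 partner arms, in 23.4% of the 2337 and in 23.9% of the 568. A match is a description of letters, and 3 of the 4 letters of GGAG are G. Its part in vesicle loading was not tested, since the series has no separate sample labelled as cellular RNA.

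Other miRNAs on the array with the seed of a member were few. The seed of miR-149-3p is also that of miR-4728-5p, which read 386.5 units in control and 505.3 in BNCT (difference 0.17, spot error 0.13), and of miR-6785-5p, which read 632.0 and 829.0 (difference -0.02, spot error 0.13). The seed of miR-197-5p is that of miR-3132, at 278.3 and 283.9 units (difference 0.03, spot error 0.19). The seed of miR-328-5p is that of miR-6885-5p, at 327.3 and 467.3 units, whose difference of 0.58 (spot error 0.14) contrasts with the -0.10 of miR-328-5p. All 4 seed relatives were detected on both arrays. The other 7 arms shared their seed with none of the other probes among the 2337 with a sequence. The rest of the array was not searched. The longest run of letters that any member shares with another probe's miRNA was 11 bases, of members 21 to 25 bases long. Aligned without gaps, at most 16 bases of a member matched another miRNA among those 2337 probes, which held for miR-149-3p, miR-296-5p and miR-197-5p. How far such sequences bind each other's probes was not tested.

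miRNAs tied to the same processes were mostly under the limit. On a list of 14 miRNAs linked to p53 or DNA damage 2 passed the limit in control and 3 in BNCT, and miR-145-5p alone in both, at 274.2 and 277.6 units (difference 0.03, spot error 0.20). Of 14 miRNAs of blood vessel growth, the setting in which miR-296-5p is known, 0 passed the limit in control and 3 in BNCT, with none in both. Markers of other cells were also mostly under the limit. In control and in BNCT 0 and 3 of 7 blood, 0 and 2 of 5 neuronal, 1 and 0 of 5 epithelial and 1 and 1 of 3 muscle miRNAs passed it. Of all probes 28.6% and 36.2% did. The highest reading among these marker lists was 274.7 units in control and 273.8 in BNCT.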

How the data were processed

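The scanner output deposited for each array holds, per the file headers, the median intensity of each spot at 635 nm, joined from 3 scanner gains, with a background median and flags. No scaling between arrays is recorded there. The authors' deposited processed intensities equal the spot median minus 258.1 (control) or 254.9 (BNCT), divided by 1.25 or 1.54, which sets the median of the 761 and 957 listed values to 25. Groups came from the treatment label.

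In R 4.3.3, limma 3.58.1 corrected the background (nec on 312 blank spots, offset 50), and the log2 values of the 2632 miRNA probes were quantile-normalized. Limits used blanks without the top and bottom 5%. The 2 flagged miRNA spots on the control array counted as not detected. Alternatives were 3 other background corrections, an offset of 16, 5 other scalings, the authors' values and 4 other detection limits. The procedure was also run on simulated arrays with changes of 2-fold or more, set on probes well over the blanks. The differences reported here are smaller, so the simulation does not bear on them or on arms near the limit.

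The members and lists were chosen with earlier results of these data known. Named miRNAs were the members, array miRNAs with a member's seed, the probe nearest to each bright arm on both arrays, the 3 hairpins just under the threshold, and p53 and vessel growth miRNAs detected on both arrays. The marker miR-21-5p was added, as was miR-24-3p, the brightest on the glial list. The 5 other hairpins with numbers under 1000 over the threshold were also named.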

Additional observations from a re-analysis of the deposited data

How the results depend on the processing

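With 1 spot per probe and 1 array per group, signal over background limits the partner arms, which lay near the limit, and no setting replaces replicates. Scaling moved all arms together. The median difference of the 630 probes was -0.01 as reported, 0.45 without normalization, 0.73 with spike scaling and 0.41 in the authors' values. In that order of alternatives, miR-149-3p was 0.90, 1.18 and 0.75, miR-296-3p 0.77, 1.06 and 0.57, miR-197-5p 0.67, 0.95 and 0.51, miR-328-5p 0.49, 0.77 and 0.28, miR-652-5p 0.50, 0.78 and 0.36, miR-296-5p 0.40, 0.68 and 0.43, and the median of the bright arms 0.67, 0.95 and 0.51. With spike scaling 2 arms, miR-149-3p and miR-296-3p, passed 2-fold, and in no other setting did any of the 6 arms. The median of the 630 probes was itself 0.73 with spike scaling. The share of all probes past 2-fold there was not counted, so these 2 arms are not set apart by it. With the scanner's background column miR-296-3p was -0.13, miR-197-5p and the median of the bright arms -0.17, miR-328-5p -0.54 and miR-652-5p -0.51. That column read higher in BNCT than in control for each of these arms, and exceeded the BNCT spot of miR-652-5p. With median scaling miR-296-3p was 0.27. The number of hairpins with a partner arm detected on neither array was 4 at 5 SD, 4 with the limit from spots without a probe and 1 with a common limit. For probes with 50% G or more the detected share was 74.6% and 90.4% at 5 SD, and 58.8% and 81.2% with the limit from spots without a probe, on the control and the BNCT array. Beyond the shift common to all probes, the cause of these changes was not tested. No paired analysis was possible because each group has 1 array.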

Other observations

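The probe nearest to each bright arm on both normalized arrays, by Euclidean distance over the 2 levels, was miR-6729-5p for miR-149-3p (distance 0.13 on the log2 scale), miR-10401-5p for miR-296-3p (0.12), miR-4442 for miR-197-5p (0.016), miR-4484 for miR-328-5p (0.029) and miR-1238-5p for miR-652-5p (0.026). miR-6729-5p, like miR-149-3p, read higher in BNCT than the median probe, with 463.0 units in control and 711.2 in BNCT and a difference of 0.38. Likeness over 2 arrays is a description only.

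miR-296-3p, miR-149-3p and miR-197-5p were printed in the same block of the array, block 6 of 32. In that block 21.6% of 88 miRNA probes passed the limit in control and 35.2% in BNCT, against 28.6% and 36.2% of all probes. It held 8 of the 146 probes that read more than 100 units over the blanks on both arrays, and the most in any block was 9. Its 15 other probes detected on both arrays had a median difference of -0.05.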
